A study of Mus musculus with 6 samples.

Results

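Semaphorins, plexins, ephrins and their Eph receptors are the main families through which neighbouring cells read contact and short-range guidance cues. They were followed here in messenger RNA of RAW264.7 cells, a mouse macrophage line. The members were all protein-coding rows of the deposited count table whose gene names mark them as semaphorins, plexins of types A to D, EphA or EphB receptors, or ephrins of types A or B. This gave 51 of 54532 genes: 20 semaphorins, 9 plexins, 14 Eph receptors and 8 ephrins. The rule used names and biotype only, not measured values. The series held 2 groups of 3 libraries, labelled replicates A, B and C. The first was RAW264.7 cells grown alone. The second was RAW264.7 cells kept for 48 h with TTJ cells, a Tsc2-null line from an angiomyolipoma of mice that model tuberous sclerosis complex. The genotype of the RAW264.7 cells was given as WT in both groups, both lines were kept in DMEM with 10% serum, and cells of both groups were collected by FACS. The group as a model rests on 1 macrophage line and 1 tumour line. Separate cultures are named by no label, so the p-values speak for the variation among these libraries, and that may be technical.

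In background terms, semaphorins are secreted or membrane-bound ligands that share a sema domain. Plexins are their signalling receptors and act on small GTPases, and the secreted class 3 semaphorins usually need a neuropilin as co-receptor. Eph receptors are receptor tyrosine kinases. Their ephrin ligands are anchored in the membrane by a lipid (type A) or by a transmembrane segment (type B), so signals pass in both directions between touching cells. In macrophages these families are known for roles in adhesion, migration, and contact with T cells and osteoblasts.

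Total counts ran from 14329487 to 17358280 per library, and the members took 0.177% to 0.207% of them. Values are CPM (counts scaled to TMM-adjusted library size), given per library in the order A, B, C, or FPKM (also divided by gene length) where genes are compared with each other. The 12 macrophage markers summed to 12090 to 12170 CPM alone and 12700 to 13040 CPM in coculture. Lyz2 by itself had means of 6768 and 7266 CPM. Of the 12, 6 were called higher and 4 lower, from 1.24-fold lower (Tyrobp) to 5.52-fold higher (Aif1). Some markers from lists for other cell types were present in the cocultured libraries. The 15 renal and simple epithelial markers summed to 0.275 to 0.600 CPM alone and 319 to 365 CPM in coculture, where 10 of the 15 were called higher, while Epcam and Lhx1 had no count in any library. The 15 mesenchymal and smooth muscle markers summed to 1.79 to 2.06 CPM alone and 59.9 to 64.4 CPM in coculture. Most of the coculture sum was Col5a1, Timp3 and Cav1, the 3 called higher, with means of 25.6, 17.9 and 15.2 CPM. Acta2 was tested and not called, and 11 did not pass the filter, with Col3a1, Pdgfra and Myl9 at 0 throughout. The sum therefore does not stand for the whole list. The part of RNA from other cells in the results below was not tested. In bulk RNA, a change in the number of cells of a type and in the RNA per cell cannot be told apart.

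Among members that lone macrophages already expressed, 9 of 17 tested did not pass the test. Most of the other 10 tested were almost absent alone and present in all 3 cocultured libraries. Of the 51 members, 40 had at least 1 count and 27 passed the filter on low counts. Of the 27, 15 were higher and 2 lower in coculture (edgeR quasi-likelihood test, Benjamini-Hochberg adjusted p under 0.05 over 12972 genes), against 21.7% of all tested genes called higher and 15.2% called lower. A member nearly absent from lone cells could pass this filter only by being high in coculture, so those that passed are a selected set. Split by level alone, 17 members had a mean of at least 1 CPM in lone cells. Of these 6 were higher, 2 were lower and 9 did not pass the test, beside 16.8% higher and 17.2% lower among all 11458 tested genes of that level. Their median log2 change was -0.03, and that of all such genes was -0.02. The other 10 were under 1 CPM alone, and 9 of them were called higher, beside 59.0% of all 1514 such genes tested. The exception, Efnb3, had 39 counts alone and 23 in coculture and did not pass the test. Epha2, among the 9, had 47 lone counts and was not nearly absent. The split at 1 CPM was chosen after the values were seen.

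**Figure D1:**
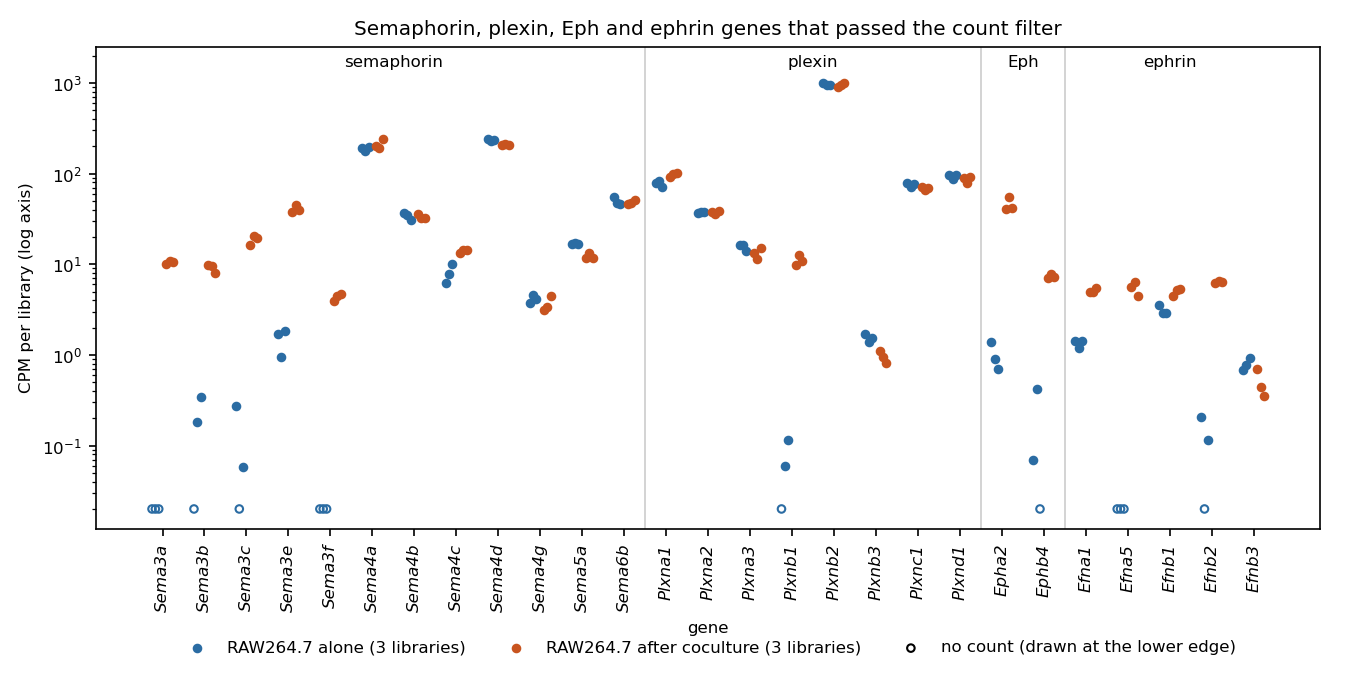
CPM of the 27 members that passed the filter in each of 3 lone (blue) and 3 cocultured (orange) libraries, on a log axis, with libraries at 0 counts drawn open at the lower edge. Plxnb2, with a mean of 968 CPM alone and 955 CPM in coculture, was the highest member in both groups, and Sema3a, Sema3f and Efna5 had no count in any lone library.

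Promoter sequences are shown for Epha2 and Sema3e, which were low in lone cells and rose in coculture, and for the plexin genes Plxnc1 and Plxnd1, which were well expressed alone and did not pass the test. They allow a comparison of the sequence around the start sites. Of the 51 members, 45 matched the RefSeq promoter table (GRCm38.p6, the assembly of mm10), which holds 250 bases before and 50 after a start site. Capitals mark GAGGAA, the core bound by the macrophage factor PU.1, and GGGCGG, the GC box, on either strand.
Epha2 (chr4:141300971-141301270, plus strand): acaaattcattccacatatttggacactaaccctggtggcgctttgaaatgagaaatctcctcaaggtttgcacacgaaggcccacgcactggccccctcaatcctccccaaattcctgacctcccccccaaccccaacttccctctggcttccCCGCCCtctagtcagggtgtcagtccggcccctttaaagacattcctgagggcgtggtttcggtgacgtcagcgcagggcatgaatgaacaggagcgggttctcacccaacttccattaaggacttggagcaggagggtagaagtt
Sema3e (chr5:14025026-14025325, plus strand): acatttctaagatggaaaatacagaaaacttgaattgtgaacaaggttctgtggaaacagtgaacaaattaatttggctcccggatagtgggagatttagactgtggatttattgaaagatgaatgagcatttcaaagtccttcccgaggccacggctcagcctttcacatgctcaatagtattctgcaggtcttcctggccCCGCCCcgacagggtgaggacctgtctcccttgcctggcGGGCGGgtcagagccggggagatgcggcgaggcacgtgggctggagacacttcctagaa
Plxnc1 (chr10:94944796-94945095, minus strand): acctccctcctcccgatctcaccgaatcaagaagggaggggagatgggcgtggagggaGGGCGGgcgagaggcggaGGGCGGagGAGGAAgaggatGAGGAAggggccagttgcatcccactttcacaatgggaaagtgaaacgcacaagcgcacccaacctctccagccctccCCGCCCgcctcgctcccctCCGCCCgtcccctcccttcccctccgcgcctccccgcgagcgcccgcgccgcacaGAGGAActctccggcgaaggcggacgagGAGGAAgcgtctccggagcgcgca
Plxnd1 (chr6:115994956-115995255, minus strand): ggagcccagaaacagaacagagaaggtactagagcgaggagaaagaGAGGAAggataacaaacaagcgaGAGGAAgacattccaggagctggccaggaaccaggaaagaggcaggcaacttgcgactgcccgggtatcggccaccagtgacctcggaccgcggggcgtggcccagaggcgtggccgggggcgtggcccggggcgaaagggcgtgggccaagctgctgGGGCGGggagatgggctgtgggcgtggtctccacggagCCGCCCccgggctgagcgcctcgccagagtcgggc

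The promoters of Plxnc1 and Plxnd1 held 4 and 2 matches to GAGGAA, and those of Epha2 and Sema3e held 0. Of the other plexins that did not pass the test, Plxnb2, Plxna2 and Plxna3 held 0 and Plxnb3 held 1. The 4 promoters printed therefore do not stand for all such members. GC boxes were present in all 4, with 1 match in Epha2, 2 in Sema3e, 4 in Plxnc1 and 2 in Plxnd1. Among members with at least 1 CPM alone, which include Sema3e, 6 of 16 matched promoters held GAGGAA, against 1 of 7 among members under 1 CPM alone that were called higher and 28.3% of all 27025 genes in the table. For GGGCGG the counts were 13 of 16 and 6 of 7, against 35.9% of all. The AP-1 motif TGANTCA, searched on both strands, was found in 1 of 16 (Sema4c) and 0 of 7, against 7.9% of all. For members the start nearest the 5' end of the deposited gene was used, and for all genes the first start listed. For Sema3a and Sema4d that start lay well inside the deposited gene. Their windows began at 13396534 on chromosome 5 and ended at 51756933 on chromosome 13, and both are in the member counts. The 27025 genes were taken without a limit on biotype or level, so their shares are not matched to the members. These matches describe letters in a window and not binding.

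Class 3 semaphorins, the secreted class, changed most within the ligand family. All 5 tested members rose, beside 21.7% of all tested genes. Of these, 4 were under 1 CPM alone and passed the filter through coculture, a level at which 59.0% of all tested genes were called higher. Sema3e, which signals through plexin-D1 without needing a neuropilin (chromosome 5, 14025276 to 14256689), was the one already measurable alone. It was at 1.72, 0.959 and 1.84 CPM alone and 37.4, 45.1 and 39.3 CPM in coculture. The groups were far apart, with coculture replicate B the highest library. The rise was 26.9-fold (log2 4.75, SE 0.154, edgeR adjusted p = 2.38e-18). Sema3c, a class 3 ligand known from vascular and cardiac development (chromosome 5, 17574281 to 17730268), was counted 4, 0 and 1 times in the lone libraries and 232, 322 and 335 times with TTJ cells. It reached 16.2, 20.6 and 19.7 CPM, a rise of 170-fold (log2 7.41, SE 0.311, edgeR adjusted p = 4.26e-16). Without alone replicate A, which holds 4 of the 5 lone counts, its log2 change was 8.99.

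Sema3a, the prototype collapsin that repels axons (chromosome 5, 13125414 to 13602565), was not counted alone and reached 10.0, 10.8 and 10.7 CPM with TTJ cells. That is at least 171-fold higher, with 3 counts over the lone group as the floor. Sema3f, a neuropilin-2 ligand (chromosome 9, 107681500 to 107710475), was not counted alone either and reached 3.92, 4.47 and 4.70 CPM with TTJ cells, which is at least 71.0-fold higher. The edgeR adjusted p was 2.31e-14 for Sema3a and 8.84e-11 for Sema3f. Sema3b, located close to Sema3f on chromosome 9 (107597674 to 107609229), was counted 0, 3 and 6 times in the lone libraries and 141, 151 and 136 times with TTJ cells. Its level rose from 0.175 ± 0.173 to 9.17 ± 1.02 CPM (mean ± SD, n = 3 per group), and the fitted log2 change of 5.57 (SE 0.346, edgeR adjusted p = 9.99e-13) became 6.46 without alone replicate C. For Sema3a, Sema3b and Sema3f every cocultured library lay above every lone one. With so few lone counts, passing the filter already required this, so it adds no support. Sema3d and Sema3g were too low to test, with 0 counts alone and 10 and 12 counts over the cocultured libraries.

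The membrane-bound class 4 semaphorins included Sema4a and Sema4d, the main semaphorins of lone RAW264.7 cells by FPKM. Of 5 tested members 2 were higher and 1 lower, beside 16.8% and 17.2% of all genes with at least 1 CPM alone, and the changes called ran from 1.13-fold lower to 1.75-fold higher. Sema4d, or CD100, a ligand of plexin-B1, plexin-B2 and CD72 (chromosome 13, 51685529 to 51793747), was at 240.2, 232 and 235 CPM alone and 209, 210.5 and 209 CPM in coculture. All 3 cocultured libraries lay below the lone ones, and the fall was 1.13-fold (log2 -0.17, SE 0.0421, edgeR adjusted p = 0.00215). Sema4a, a ligand known for T cell costimulation (chromosome 3, 88435959 to 88461182), was at 193, 179.6 and 195 CPM alone and 202, 191 and 240.0 CPM in coculture. The groups overlapped, with coculture replicate C the highest library. Sema4a passed the threshold narrowly (1.12-fold higher, edgeR adjusted p = 0.0450). The call was lost without coculture replicate C (log2 0.06, adjusted p = 0.431), without alone replicate B (adjusted p = 0.203), without coculture replicate A (adjusted p = 0.0534), with upper quartile scaling (0.0614), in DESeq2 (0.269) and on both FPKM scales (0.206), within a range of 0.00407 to 0.431.

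Sema4c, a ligand of plexin-B2 (chromosome 1, 36548639 to 36558349), rose 1.75-fold, from 6.26, 7.74 and 9.97 CPM alone to 13.4, 14.4 and 14.4 CPM in coculture (log2 0.81, SE 0.144, edgeR adjusted p = 6.46e-05). The groups did not overlap. It shares 7.3% of its exonic bases with an antisense gene, D430040D24Rik, which had 3 counts alone and 9 in coculture. Sema4b, a transmembrane ligand, was at 36.9, 35.3 and 30.6 CPM alone and 36.1, 32.4 and 32.3 CPM in coculture, with a log2 difference of -0.03 and a 95% interval of -0.20 to 0.14. Sema4g was at 3.78, 4.62 and 4.15 CPM alone and 3.15, 3.38 and 4.53 CPM in coculture (edgeR adjusted p = 0.557). Both sets of libraries overlapped. Sema4f was too low to test, with 1 count alone and 7 in coculture, all 7 in replicate B.

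Outside classes 3 and 4, 1 semaphorin fell. Sema5a, which carries thrombospondin repeats and binds plexins of type A (chromosome 15, 32244810 to 32696341), went from 16.8, 17.1 and 16.7 CPM alone to 11.8, 13.3 and 11.8 CPM in coculture. The fall was 1.37-fold, with no overlap (log2 -0.46, SE 0.110, edgeR adjusted p = 0.00166). Sema6b, a transmembrane ligand of type A plexins, was at 55.3, 48.1 and 46.5 CPM alone and 46.6, 47.9 and 51.5 CPM in coculture, with a log2 difference of -0.03 (95% interval -0.18 to 0.11). Sema6d, the plexin-A1 ligand known from osteoclasts and dendritic cells, was counted 4, 6 and 14 times in the lone libraries and 1, 2 and 9 times with TTJ cells, under the filter. Sema7a, a lipid-anchored ligand of plexin-C1 and beta 1 integrins, was also under it, with 7, 1 and 3 lone counts against 7, 17 and 9 with TTJ cells. Sema6a had 0 and 15 counts, Sema6c had 4 and 3, and Sema5b had none in any library.

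**Figure D2:**
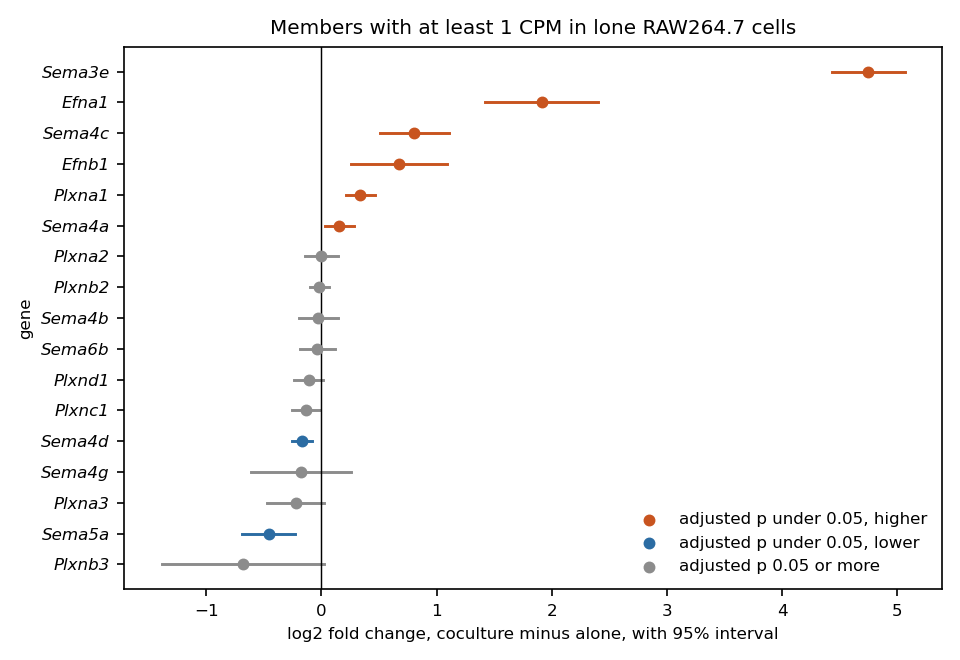
Log2 fold change of the 17 members whose lone mean reached 1 CPM, with 95% intervals from the edgeR fit. Sema3e (4.75) and Efna1 (1.91) stand apart on the right, 2 members fell (Sema4d and Sema5a), and the interval of Plxnb2 spans -0.10 to 0.06.

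Of the 9 plexins, the semaphorin receptors, 7 had at least 1 CPM in lone cells. Of 8 tested, 6 did not pass the test, beside 8179 of all 12972 tested genes. Plxnb2 (chromosome 15, 89155549 to 89180788), a receptor for Sema4c and Sema4d, was the highest member of all families. It was at 1007, 944 and 951 CPM alone and 912, 942 and 1012 CPM in coculture, with the groups overlapping fully (log2 -0.02, 95% interval -0.10 to 0.06, edgeR adjusted p = 0.765). Plxna1 (chromosome 6, 89316314 to 89362620), which pairs with Trem2 and Dap12 in osteoclasts and dendritic cells, rose 1.26-fold. Its levels were 79.6, 82.5 and 70.7 CPM alone and 91.7, 99.2 and 103 CPM in coculture, without overlap (log2 0.34, SE 0.0601, edgeR adjusted p = 5.98e-05). An antisense gene, Gm26811, covers 10.7% of the exonic bases of Plxna1 and had 11 counts alone and 12 in coculture.

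Plxnb1 (chromosome 9, 109095389 to 109119917), the high-affinity receptor of Sema4d, was nearly absent from lone cells. Its counts were 0, 1 and 2 in the lone libraries but 140, 199 and 183 with TTJ cells, or 9.80, 12.7 and 10.8 CPM there. Per library size the counts differed by a ratio of 180.0 (exact 95% bounds 61.2 and 876, for counting error alone). Without alone replicate C, its fitted log2 change of 7.32 became 8.12. Plxnd1, the receptor of Sema3e, was at 95.9, 88.1 and 96.9 CPM alone and 89.4, 78.0 and 92.9 CPM in coculture, with overlap (log2 -0.11, 95% interval -0.24 to 0.01). Plxnc1, the receptor of Sema7a, was at 79.5, 71.8 and 77.1 CPM alone and 71.9, 66.7 and 69.5 CPM in coculture (edgeR adjusted p = 0.0724), and without alone replicate B it passed as lower (log2 -0.18, adjusted p = 0.0338).

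The other tested plexins, like Plxna1 receptors of semaphorins with an intracellular GTPase-activating domain, did not pass. Plxna2 was at 37.1, 37.6 and 37.6 CPM alone and 37.5, 36.2 and 38.5 CPM in coculture (log2 difference 95% interval -0.15 to 0.14). Plxna3 was counted 236, 271 and 243 times in the lone libraries and 190, 180 and 255 times with TTJ cells, or 15.5 ± 1.29 and 13.3 ± 1.75 CPM (edgeR adjusted p = 0.161), with overlap. Plxnb3 was at 1.72, 1.38 and 1.56 CPM alone and 1.12, 0.957 and 0.823 CPM in coculture (edgeR adjusted p = 0.124). Its groups did not overlap although the call was not made. Plxna4 had no count in any library.

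Lone RAW264.7 cells had little Eph receptor RNA, by FPKM mostly Epha2, and the cocultured libraries held mainly Epha2 and Ephb4. Epha2, the epithelial receptor of ephrin-A1 (chromosome 4, 141301240 to 141329384), was at 1.38, 0.899 and 0.692 CPM alone and 40.7, 55.1 and 41.4 CPM in coculture. Replicate B was the highest cocultured library, and every lone library lay far below. The rise was 46.8-fold (log2 5.55, SE 0.178, edgeR adjusted p = 2.17e-18). Ephb4, the receptor of ephrin-B2 (chromosome 5, 137350109 to 137378669), was counted 1, 7 and 0 times in the lone libraries and 101, 123 and 123 times with TTJ cells. It reached 7.07, 7.85 and 7.23 CPM, and its fold rests on lone replicate B: the log2 change was 5.42 (SE 0.395, edgeR adjusted p = 2.41e-11), 7.55 without alone replicate B and 4.81 without alone replicate C.

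The remaining 12 Eph receptors were too low to test. Ephb3 and Epha7 had no count alone and 36 and 26 counts in coculture, at least 12.4-fold and 8.96-fold higher by the floor of 3 counts. Epha1 had 4 counts alone and 20 in coculture. The other 9 (Epha3, Epha4, Epha5, Epha6, Epha8, Epha10, Ephb1, Ephb2 and Ephb6) had no count in any of the 6 libraries. In an edgeR fit without a filter on low counts, 7 of the 13 counted but untested members were called higher, against 13.4% of all 23676 genes in that fit. They were Ephb3, Epha7, Efna3, Efna4, Sema3d, Sema3g and Sema6a, with adjusted p from 1.95e-06 for Ephb3 to 0.0491 for Sema3d. That 13.4% covers genes of every level, and the share among low-count genes alone was not computed. P-values of the unfiltered fit are not on the scale of the main fit. For Epha2 the edgeR adjusted p was 6.19e-285 there, against 2.17e-18 in the main fit.

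Of 5 tested ephrins 4 rose, from both types, beside 21.7% of all tested genes. Efna5 and Efnb2 were under 1 CPM alone, where 59.0% of all tested genes were called higher. Efna1, the ephrin-A1 ligand of EphA2 (chromosome 3, 89271733 to 89281142), was counted 21, 20 and 25 times in the lone libraries and 70, 78 and 94 times with TTJ cells, or 1.36 ± 0.141 and 5.14 ± 0.340 CPM. The groups did not overlap, and the rise was 3.77-fold (log2 1.91, SE 0.239, edgeR adjusted p = 3.83e-07). Efna5, a lipid-anchored ligand of several EphA receptors (chromosome 17, 62604184 to 62881317), was not counted alone and reached 5.67, 6.38 and 4.53 CPM with TTJ cells, which is at least 88.9-fold higher (edgeR adjusted p = 2.22e-11). Efna4 had 1 count alone and 2, 11 and 12 counts in coculture, and Efna3 had 2 counts alone and 19 in coculture. Efna4 and Efna3 share 10.5% and 14.1% of their exonic bases with antisense genes. Efna2 had 10 and 12 counts.

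Among the transmembrane ephrins, Efnb1 (chromosome X, 99136130 to 99148991) was the one that lone cells expressed most. It rose from 3.58, 2.94 and 2.94 CPM to 4.48, 5.17 and 5.35 CPM (1.60-fold, log2 0.67, SE 0.201, edgeR adjusted p = 0.00981). Efnb2, the ligand of EphB4 known from arterial endothelium (chromosome 8, 8617434 to 8661242), was counted 3, 0 and 2 times in the lone libraries and 88, 102 and 110 times with TTJ cells. It reached 6.16, 6.51 and 6.46 CPM in coculture, and its fitted log2 change of 5.85 (SE 0.403, edgeR adjusted p = 8.18e-12) became 6.59 without alone replicate A. Efnb3 was the tested ephrin that did not pass, with 10, 13 and 16 lone counts against 10, 7 and 6 with TTJ cells (edgeR adjusted p = 0.245).

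Scaled by gene length, summed plexin RNA differed by less than its spread between libraries, and summed Eph receptor RNA by more. Summed FPKM of the 9 plexins was 159.9 ± 5.52 alone and 159.7 ± 7.87 in coculture. For the 14 Eph receptors it was 0.269 ± 0.110 alone and 11.6 ± 1.84 in coculture, and for the 8 ephrins 2.05 ± 0.225 and 7.31 ± 0.390. The 20 semaphorins summed to 88.0 ± 2.78 alone and 99.7 ± 4.99 in coculture. The groups did not overlap for Eph receptors, ephrins and semaphorins, and they overlapped for plexins. The sums are given without a test. Within the plexins, Plxnb2 held 78.2% of the FPKM alone and 77.4% in coculture. Within the Eph receptors, Epha2 held 82.0% ± 17.7 alone, at low counts, and 83.8% ± 1.64 in coculture. Within the ephrins, Efnb1 went from 44.5% ± 3.13 to 19.8% ± 0.943 of the summed FPKM while Efna5 and Efnb2 made up 18.8% and 12.7% in coculture. Class 4 semaphorins stayed in the lead, with Sema4a at 39.7% and 39.0% and Sema4d at 34.8% and 27.3% of the semaphorin FPKM.

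**Figure D3:**
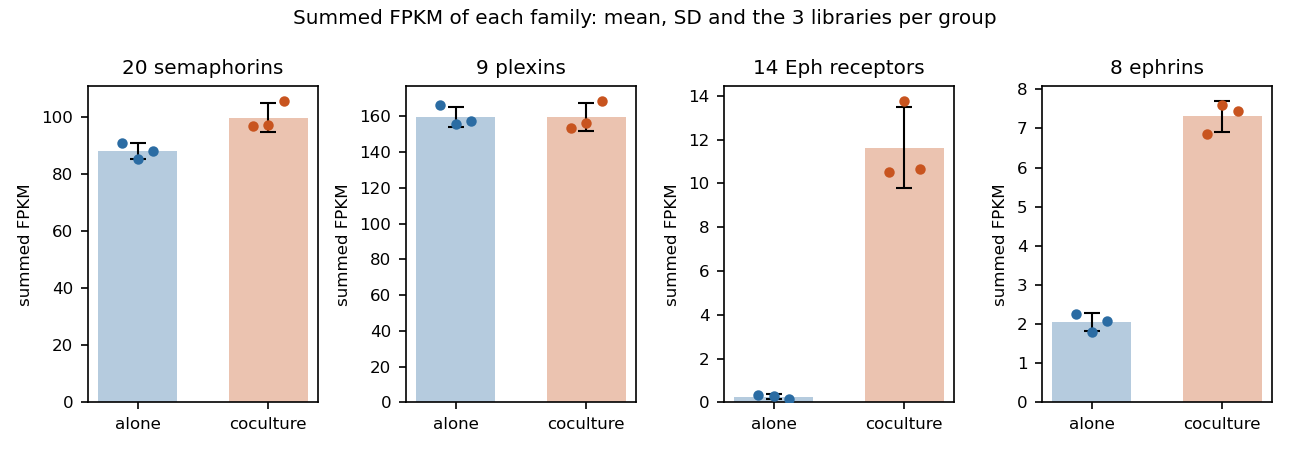
Summed FPKM of all members of each family per group, with bars for the mean, error bars for the SD and points for the 3 libraries. Plexins were at 159.9 and 159.7 in the 2 groups, whereas Eph receptors went from 0.269 to 11.6.

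Set side by side, known ligand and receptor pairs differed in which partner was present in lone cells. For Sema3e and Plxnd1, the receptor was at 12.8 ± 0.671 FPKM alone and the ligand at 0.162 ± 0.0516 FPKM, which became 4.37 ± 0.435 FPKM in coculture. For Sema4d and Plxnb1, the ligand was at 30.6 ± 0.570 FPKM alone and the receptor, nearly absent there, was at 1.15 ± 0.155 FPKM in coculture. The more abundant receptor Plxnb2 was at 125 ± 4.58 and 124 ± 6.67 FPKM. For Efna1 and Epha2, both partners rose, Efna1 from 0.742 ± 0.0774 to 2.80 ± 0.184 FPKM and Epha2 from 0.211 ± 0.0750 to 9.77 ± 1.75 FPKM. For Efnb2 and Ephb4, both were near 0 alone and at 0.929 ± 0.0284 and 1.59 ± 0.0907 FPKM in coculture. For Sema6d and Plxna1, the receptor was at 8.55 ± 0.676 and 10.8 ± 0.641 FPKM and the ligand stayed under 0.1 FPKM in every library. The pairs are background knowledge chosen with the values known, and RNA levels do not show that the proteins met.

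**Figure D4:**
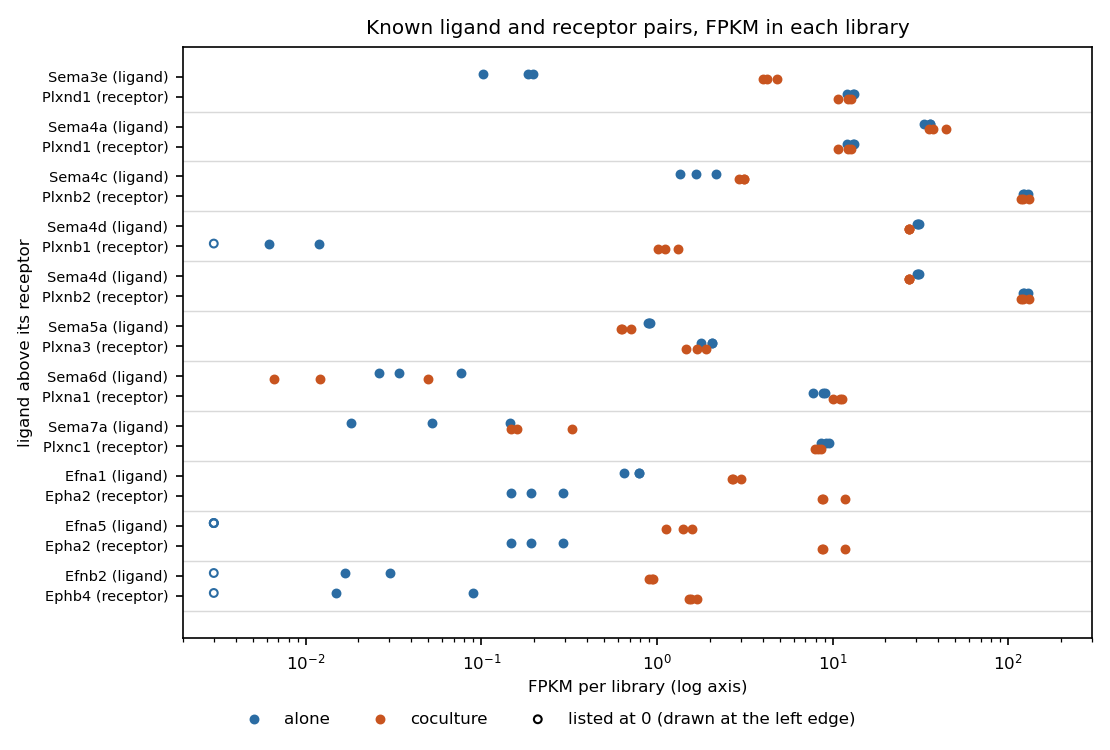
FPKM in each library for 11 known pairs, the ligand above its receptor, on a log axis with values listed at 0 drawn open at the left edge. Sema3e, Plxnb1, Epha2, Efna5, Efnb2 and Ephb4 lie far to the right in coculture (orange), while Plxnd1, Plxnb2, Plxnc1 and Plxna3 overlap between groups.

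Of 96 genes that work with these families, 77 were tested, and 34 were higher and 9 lower in coculture, beside the 21.7% and 15.2% of all tested genes. With at least 1 CPM alone there were 65, of which 22 were higher and 9 lower, beside 16.8% and 17.2% of all genes of that level. Their median log2 change was 0.06, against -0.02 over all such genes. The other 12 tested were under 1 CPM alone, and all 12 were higher, beside 59.0%. Among 16 co-receptors and other semaphorin receptors, 11 were tested, 6 higher and 2 lower, or 2 higher and 2 lower of the 7 with at least 1 CPM alone. The neuropilins did not pass: Nrp2 was at 880.5 ± 15.2 and 875 ± 15.3 CPM, and Nrp1 at 15.5 ± 0.359 and 14.6 ± 1.32 CPM (edgeR adjusted p = 0.885 and 0.557). Nrp1 and Nrp2 were picked for naming after their values were seen. Met, the hepatocyte growth factor receptor that associates with plexin-B1, had 8 counts alone and rose to 21.8 ± 2.23 CPM. Erbb2, a receptor kinase that also associates with plexins of type B, and Itga1, an integrin chain of a Sema7a receptor, had no count alone and reached 4.68 ± 0.765 and 2.22 ± 0.286 CPM, at least 75.8-fold and 36.2-fold higher. Tyrobp, the adaptor Dap12 that is also on the macrophage marker list, fell 1.24-fold to 200.5 ± 3.57 CPM (edgeR adjusted p = 4.03e-06). Tyrobp, and Adam17 below, were likewise named after their values were seen.

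Of 37 plexin effectors 32 were tested, with 10 higher and 4 lower, beside 21.7% and 15.2% of all tested genes. Of the 30 with at least 1 CPM alone, 8 were higher and 4 lower, beside 16.8% and 17.2%. Farp1, a Rac exchange factor, had no count alone and reached 10.4 ± 1.24 CPM, at least 169-fold higher. Mras, a Ras-family GTPase, rose 2.44-fold to 2.89 ± 0.609 CPM (edgeR adjusted p = 0.00189). Rnd3, a plexin-binding GTPase, was counted 3 times alone and 74 times with TTJ cells (ratio 25.5, exact 95% bounds 8.40 and 126.5). Its fitted log2 change of 4.52 became 5.32 without alone replicate C. Of 33 Eph and ephrin effectors 27 were tested, with 12 higher and 2 lower, beside the same 21.7% and 15.2%. Of the 23 with at least 1 CPM alone, 8 were higher and 2 lower, beside 16.8% and 17.2%. Ptpn13, a PDZ-domain phosphatase, had 2 counts alone and 42.9 ± 2.35 CPM in coculture. Its fitted log2 change of 9.77 became 12.40 without alone replicate B, which holds both counts. Yes1, a Src-family kinase, and Nck2, an adaptor of ephrin-B signalling, had no count alone and reached 6.48 ± 1.06 and 2.29 ± 0.223 CPM, at least 105.8-fold and 37.2-fold higher.

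Proteases that cut semaphorins, Ephs or ephrins gave 6 higher and 1 lower among 7 tested of 10. The shares of all tested genes were 21.7% and 15.2%. Mmp14 and Rhbdl2 were under 1 CPM alone, and of the other 5 tested 4 were higher and 1 lower, beside 16.8% and 17.2%. Adam8, a surface metalloprotease, rose 1.36-fold, from 569, 583 and 543 CPM alone to 763, 769 and 778 CPM in coculture, without overlap (edgeR adjusted p = 3.60e-10). Mmp14, a membrane-type metalloprotease, rose from 0.773 ± 0.473 to 7.92 ± 0.739 CPM (10.0-fold), and its log2 change of 3.33 became 3.95 without alone replicate B. Rhbdl2, a rhomboid protease, had no count alone and was at 1.04 ± 0.257 CPM in coculture, at least 16.9-fold higher. The gene that fell was Adam17, the TACE protease, by 1.35-fold (edgeR adjusted p = 1.10e-08).

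**Figure D5:**
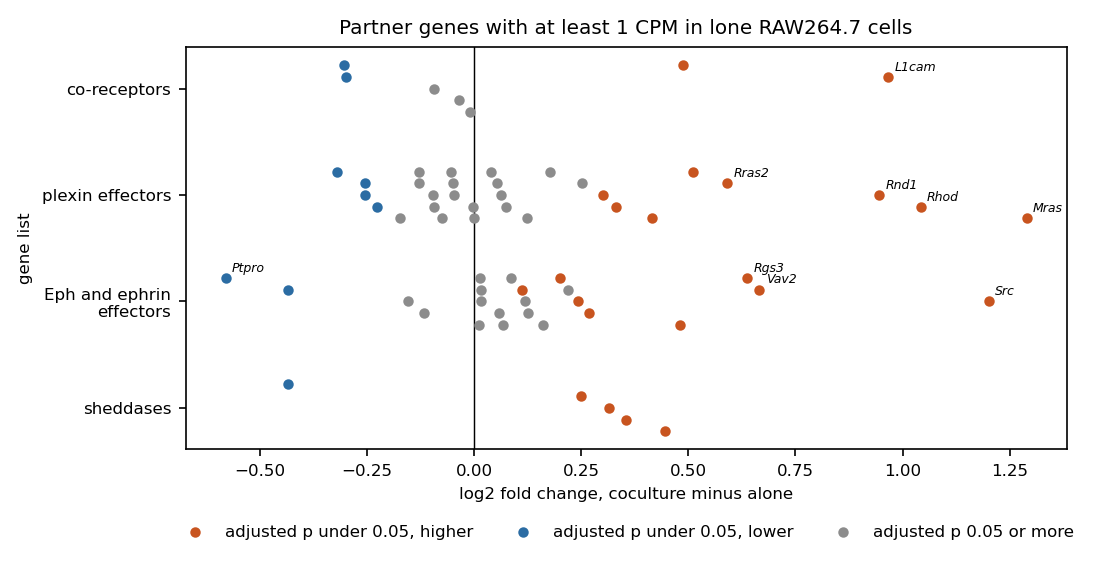
Log2 fold change of the 65 tested partner genes whose lone mean reached 1 CPM, by list, coloured by the edgeR call. Mras and Src lie farthest to the right, Ptpro farthest to the left, and 22 points are higher, 9 lower.

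The 9 members under 1 CPM alone that were called higher summed to 1.32 to 1.93 CPM in the lone libraries and to 109.5, 134 and 113 CPM in cocultured replicates A, B and C. Replicate B was the highest for this sum. It was also the highest for the epithelial markers (319, 365 and 335 CPM). The same held for the share of counts in the 688 genes that no lone library counted and that had 10 or more counts with TTJ cells (0.282%, 0.314% and 0.286%). These quantities are not separate. The 688 genes include Sema3a, Sema3f and Efna5 of the 9 members and 8 of the epithelial markers. Whether RNA of other cells in the sorted libraries carried these members was not tested.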

How the data were processed

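RNA of 6 RAW264.7 libraries was taken after poly-T selection and random-hexamer reverse transcription, per the labels' protocols, then sequenced as paired ends. Per the submitters' processing notes the build was mm10, and the tools listed, without roles, include featureCounts 1.5.0-p3 and the aligner HISAT2 2.0.5. Whether counting used strand is not stated in the labels or headers. The authors deposited raw counts per gene and FPKM values of the same libraries. All 51 members had the start and end coordinates of GENCODE M21. For Sema4g the exonic bases differ, 8661 in GENCODE M21 against a deposited gene length of 4872, the length behind its FPKM.

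Counts were tested across all 12972 genes that passed filterByExpr in edgeR 4.0.16 under R 4.3.3 (glmQLFit and glmQLFTest), with TMM scaling and a group term, with Benjamini-Hochberg adjustment and a threshold of 0.05. SE is the absolute log2 change over the square root of F. The fit was first checked on simulated data, with changes placed only in genes well counted in lone cells. That check does not cover genes nearly absent alone. For genes with no lone count, 3 counts over the group set the bound, and 1 to 3 counts gave an exact conditional binomial interval. Both cover counting error only. At this depth 3 counts over a group are 0.0618 CPM alone and 0.0639 CPM in coculture. No 2 libraries of a group were alike within counting noise (chi-square per degree of freedom 3.10 to 4.82). Alternatives were DESeq2 1.42.0, limma 3.58.1 on log2(FPKM + 1) and log2(FPKM + 0.1), other scalings and filters, a replicate block and each library left out. Members and lists were chosen with earlier results of these data known. Each member was accounted for, and from each partner list up to 3 called genes were named, those with the largest absolute log2 change whose higher group reached 1 CPM.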

Additional observations from a re-analysis of the deposited data

How the results depend on the processing

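The count of higher members was 15 and ran from 14 to 22 over the other scalings, filters and tools, 22 being without a filter on low counts. Leaving out 1 library gave 15 to 17 higher and 2 to 3 lower, the third lower member being Plxnc1. With only genes of at least 1 CPM alone fitted, a setting chosen after seeing the data, 6 members were higher; that setting removes the members nearly absent alone. Of 421 comparisons for the 27 tested members, 403 kept direction and side of the threshold, 7 lost the call (all Sema4a), 1 gained it (Plxnc1) and 10 changed sign in genes that did not pass the test. Plxna2 was 0.0010 with DESeq2 size factors and in DESeq2's Wald test, 0.0055 with a minimum of 1 CPM in 3 libraries, and 0.015 in the fit of genes with at least 1 CPM alone (log2). With 1 library left out, log2 changes ranged from -0.056 to 0.014 for Plxnb2, -0.084 to 0.046 for Sema6b, -0.019 to 0.017 for Plxna2 and -0.10 to 0.030 for Sema4b. On the log2(FPKM + 1) scale changes of low genes were smaller, 3.14 for Epha2 and 2.21 for Sema3e.

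With the letters as a replicate block, 15 members were higher and 2 lower, and all genes gave 2815 higher and 1951 lower. The labels do not say that letters pair the groups, and deviations of same-lettered libraries correlated at 0.00576, 0.0258 and 0.0448. Members with few lone counts have folds that rest on those counts, and members at 0 alone have lower bounds only.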
